A study of Mus musculus with 6 samples.

Results

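The levels of 10 long noncoding RNAs were described in mouse pancreatic tumour organoids. Of these, 7 are hosts of small nucleolar RNAs (Gas5, Snhg1, Snhg3, Snhg5, Snhg6, Snhg8 and Snhg12) and 3 are other long noncoding RNAs (Malat1, Neat1 and Pvt1). They were chosen by name, with earlier results of these data known, and were matched by gene symbol. All 10 were found among the 23525 genes of the authors' normalized table. All 10 also passed the filter on low counts, which left 14537 genes for the tests. Total RNA was sequenced from 6 organoid cultures of KPC pancreatic tumours on the C57/Bl6 strain, grown in matrigel domes. Every culture carried the KrasLSLG12D/+ allele and the Pdx1-Cre transgene, in which the Pdx1 promoter drives the recombinase in the pancreatic lineage. The 3 heterozygous cultures had the genotype KrasLSLG12D/+, Trp53LSLR172H/+, Pdx1-Cre, and the 3 cultures labelled LOH had KrasLSLG12D/+, Trp53LSLR172H/-, Pdx1-Cre. Each group held 1 library of each of the lines 6, 23 and 34, and each comparison below sets the 3 LOH libraries against the 3 heterozygous ones.

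In the labels, each LOH culture has a description ending in Nut and no heterozygous culture has. What Nut stands for is not stated, and its effect and that of genotype cannot be told apart. A line number stands for the same organoid line in both genotypes, so n = 3 counts lines, and p-values measure only the spread between these cultures. The libraries held 13680458 to 27917277 expected counts. The share on genes of the authors' protein-coding table was 73.3, 67.9 and 71.1% in heterozygous lines 6, 23 and 34 and 67.2, 61.5 and 61.4% in the LOH lines, without overlap. Epithelial markers such as Krt19 summed to at least 2612 TPM in every library (TPM being the authors' transcript abundance, scaled for length and depth), fibroblast markers to at most 0.29 TPM with Col3a1 at 0, and leukocyte markers to 1.72 to 2.03 TPM in heterozygous and 2.62 to 10.8 TPM in LOH libraries, with Adgre1 and Lyz2 at 0. The part of that small leukocyte signal, which was nearly all Cd68, in the results below was not tested. Trp53 RNA was measured at 77.3, 76.3 and 86.5 CPM (counts scaled to a common library total) in heterozygous lines 6, 23 and 34 and at 73.5, 52.5 and 47.4 CPM in the same LOH lines. The mutant allele is present in both genotypes and its RNA can be counted in both, so these levels do not check the loss of the other allele.

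Small nucleolar RNAs guide chemical modification and processing of ribosomal and other RNAs, and most of those in mammals are cut out of the introns of host genes. Several hosts code for no protein: the spliced exons are left over once the intron is processed, and such RNAs are commonly degraded by nonsense-mediated decay when translation is running. Many hosts belong to the class with a 5' terminal oligopyrimidine tract, a run of pyrimidines that begins with a C at the transcription start. Malat1 and Neat1 are neighbouring nuclear RNAs: Malat1 collects in nuclear speckles with splicing factors, and the long form of Neat1 is the scaffold of paraspeckles. Pvt1 lies next to the Myc oncogene and is known for amplification together with it in tumours.

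The sequences around the annotated start of the hosts are shown because such a start, and a TATA-like element before it, can be read directly from them. They were taken from RefSeq (GRCm38.p6), which matched 7 of the 10 RNAs. Snhg6, Neat1 and Pvt1 had no entry. Each window runs 5' to 3' on the gene's strand, from 45 bases before the start to 30 bases from it. Capitals mark TATAAA or TATATA lying 40 to 16 bases before the start, and a run of at least 5 C or T bases that begins with C within 5 bases of the start. Both searches used the strand of the gene, and both motifs were chosen after the sequences had been seen. The shares of these hosts given below are therefore a description and do not test an excess over other promoters.
Gas5, second annotated start, chr1:161035121-161035195 (+): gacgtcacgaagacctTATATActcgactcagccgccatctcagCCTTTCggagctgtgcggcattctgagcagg
Snhg1, chr19:8723442-8723516 (+): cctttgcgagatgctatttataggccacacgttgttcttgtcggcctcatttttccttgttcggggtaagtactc
Snhg3, chr4:132353657-132353731 (-): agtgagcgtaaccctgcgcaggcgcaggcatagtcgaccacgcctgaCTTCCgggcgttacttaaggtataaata
Snhg5, chr9:88522868-88522942 (-): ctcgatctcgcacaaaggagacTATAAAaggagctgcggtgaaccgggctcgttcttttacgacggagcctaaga
Snhg8, chr3:123508307-123508381 (-): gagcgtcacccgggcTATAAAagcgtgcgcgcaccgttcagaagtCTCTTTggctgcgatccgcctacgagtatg
Snhg12, chr4:132308633-132308707 (+): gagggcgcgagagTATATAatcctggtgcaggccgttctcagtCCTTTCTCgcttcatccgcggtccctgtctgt
Malat1, chr19:5802643-5802717 (-): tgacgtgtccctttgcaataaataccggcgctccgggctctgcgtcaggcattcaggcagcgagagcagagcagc
The second start of Gas5, Snhg8 and Snhg12 each had both features. Snhg3 had the pyrimidine run alone, Snhg5 the TATA-like match alone, and Snhg1, Malat1 and the first annotated start of Gas5 neither. Of the 7 promoters of the 6 matched hosts, 57.1% had the run, 57.1% the TATA-like match and 42.9% both. Over all 32851 RefSeq promoters, 18.3% had the run, 2.73% the TATA-like match and 0.575% both. Among 19 promoters of other noncoding hosts, 31.6% had the run and 10.5% both. Among 24 promoters of coding snoRNA hosts, 20.8% had the run, 4.17% the TATA-like match and 0.0% both. A match describes the letters in the window and not a used start. Snhg5 and Snhg12, which fell in LOH libraries, share the TATA-like match but not the run. Snhg8 and the second start of Gas5 share both features with Snhg12, and neither gene passed the test. A relation of these features to the difference between genotypes was not tested.

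Neat1 rose in the LOH libraries, and Snhg5 and Snhg12 fell. These were the 3 of the 10 RNAs that passed edgeR's quasi-likelihood test at an adjusted p below 0.05, where 5.21% of all genes tested passed (3.55% higher and 1.66% lower in LOH). None of the 10 passed once the organoid line was a blocking term in the fit, where 1.47% of all genes passed. All 7 hosts had a fitted log2 fold change below 0, with a median of -0.6, against a median of 0.06 over all genes tested and 6687 of 14537 genes below 0. As the 10 RNAs were chosen with earlier results of these data known, setting them beside all genes is a description and not a test. In 6 of the 10 RNAs the 3 LOH values lay entirely outside the 3 heterozygous values, 5 of them lower and 1 higher in LOH, where 32.8% of all genes showed no overlap (16.5% lower and 16.4% higher). With 1 library left out, 4 of the 10 passed without LOH line 6 (16.2% of all genes), 1 without LOH line 34 (5.27%), and none without LOH line 23 (3.02%) or any 1 heterozygous library (0.0%). The exact permutation test of 3 against 3 libraries cannot give a p below 0.1. CPM values below were scaled by TMM. In bulk RNA, fewer cells of a type and less RNA per cell cannot be told apart.

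**Figure D1:**
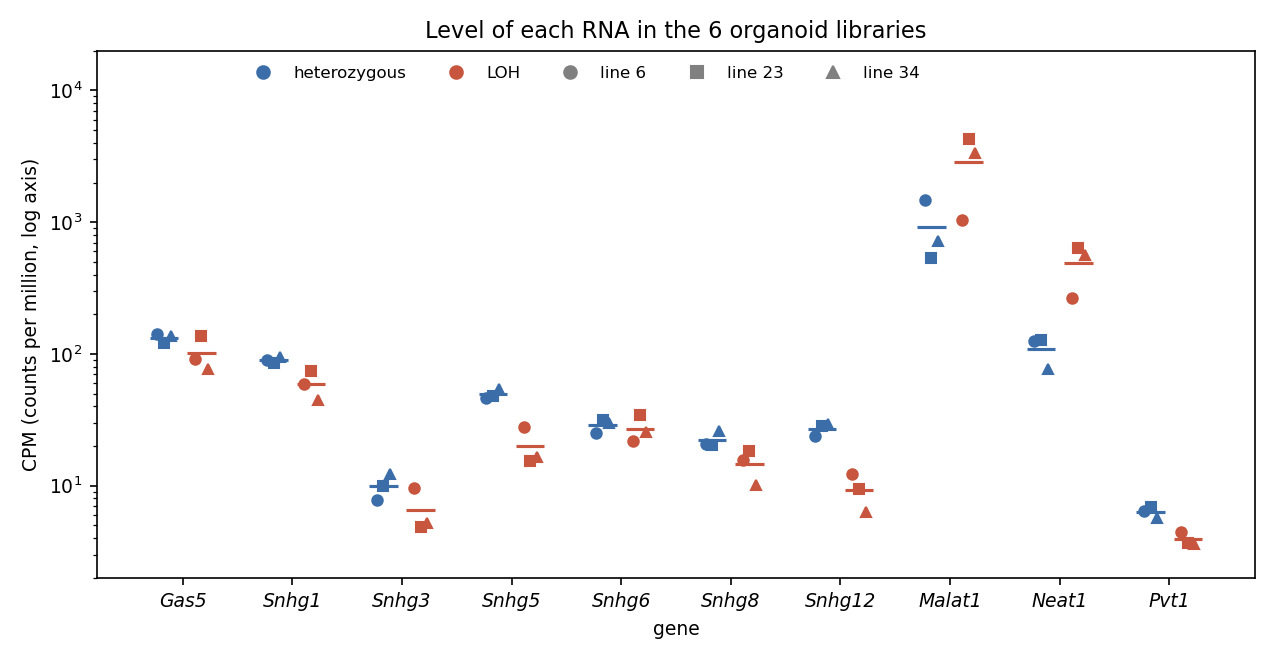
Level of each of the 10 RNAs in the 6 organoid libraries, in CPM on a log axis, 1 point per library, with colour for genotype and marker shape for line. Snhg5, Snhg12 and Pvt1 sit lower in all 3 LOH libraries and Neat1 higher, whereas the Malat1 points of the genotypes overlap, with LOH line 6 at 1034 CPM and heterozygous line 6 at 1483 CPM.

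Snhg12 (ENSMUSG00000086290.8, chr4:132308623-132311024, plus strand) hosts several H/ACA box snoRNAs. It was measured at 23.7, 28.4 and 29.3 CPM in heterozygous lines 6, 23 and 34, and at 12.2, 9.40 and 6.29 CPM in the same LOH lines. Every LOH library was below every heterozygous one. Heterozygous libraries averaged 27.1 ± 3.0 CPM and LOH libraries 9.30 ± 2.97 CPM (SD, n = 3), 2.92-fold lower. In edgeR's quasi-likelihood test the log2 fold change was -1.55 (SE 0.28, adjusted p = 0.032), and with the line as a block it was -1.59 (SE 0.33, adjusted p = 0.0908). Over the alternative settings the adjusted p ranged from 8.5e-05 to 0.165, and it passed in 9 of 14. Leaving out heterozygous line 6, 23 or 34 gave adjusted p = 0.123, 0.141 and 0.165, and leaving out LOH line 23 gave 0.0708.

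Snhg5 (ENSMUSG00000097195.9, chr9:88521050-88522929, minus strand), a host of box C/D snoRNAs, was measured at 46.2, 48.0 and 53.8 CPM in heterozygous lines 6, 23 and 34. The LOH lines 6, 23 and 34 gave 28, 15.4 and 16.6 CPM. The groups did not overlap, and LOH line 6 was the highest of the 3 LOH libraries. The mean was 49.3 ± 3.96 CPM against 20.02 ± 6.94 CPM (SD, n = 3), 2.46-fold lower in LOH. The edgeR log2 fold change was -1.3 (SE 0.27, adjusted p = 0.0421), and with the line as a block -1.35 (SE 0.3, adjusted p = 0.102). The adjusted p ranged from 0.00101 to 0.198 over the alternatives and passed in 8 of 14. It did not pass without heterozygous line 6, 23 or 34 (0.149, 0.157 and 0.198), nor without LOH line 23 or 34 (0.0856 and 0.08).

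Snhg1 (ENSMUSG00000108414.1, chr19:8723475-8726443, plus strand), a host of several box C/D snoRNAs, gave 89.7, 85.8 and 95.3 CPM in heterozygous and 59.5, 74.1 and 44.8 CPM in LOH lines 6, 23 and 34. The groups did not overlap, but the LOH libraries differed among themselves more than the heterozygous ones, at 59.5 ± 14.6 CPM against 90.3 ± 4.76 CPM (SD, n = 3). The log2 fold change of -0.6 (SE 0.22) did not pass edgeR's test (adjusted p = 0.149, range 0.0506 to 0.414 over the alternatives). Snhg8 (ENSMUSG00000104960.1, chr3:123507552-123508404, minus strand), which holds an H/ACA box snoRNA gene, followed the same order of libraries in LOH, with 15.5, 18.4 and 10.1 CPM against 20.6, 20.3 and 26.0 CPM in heterozygous lines 6, 23 and 34. All 3 LOH values were below all 3 heterozygous ones. Its log2 fold change of -0.6 (SE 0.27) did not pass edgeR's test either (adjusted p = 0.216, range 0.0666 to 0.532).

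Gas5 (ENSMUSG00000053332.13, chr1:161034422-161038539, plus strand), named for its accumulation in growth-arrested cells and a host of many box C/D snoRNAs, was the most abundant host. It gave 141.2, 120.2 and 137.8 CPM in heterozygous and 92.2, 137.4 and 76.4 CPM in LOH lines 6, 23 and 34. LOH line 23 lay within the heterozygous range and the other two LOH libraries below it. The edgeR log2 fold change was -0.38 (SE 0.25, adjusted p = 0.371, range 0.115 to 0.626). Snhg3 (ENSMUSG00000085241.7, chr4:132348014-132353686, minus strand), host of the U17 snoRNAs Snora73a and Snora73b, gave 7.74, 10.02 and 12.25 CPM in heterozygous and 9.55, 4.87 and 5.17 CPM in LOH lines. LOH line 6 was above its heterozygous partner and lines 23 and 34 were below theirs. The log2 fold change was -0.62 (SE 0.35), with an edgeR adjusted p of 0.311 (range 0.0542 to 0.654). Leaving out LOH line 6 gave -1.03.

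Snhg6 (ENSMUSG00000098234.7, chr1:9941959-9944118, minus strand), which hosts Snord87, was the host with the smallest difference. Its levels were 25.2, 31.3 and 29.7 CPM in heterozygous and 21.8, 34.2 and 25.5 CPM in LOH lines 6, 23 and 34, and LOH line 23 was the highest of all 6. Its log2 fold change of -0.08 (SE 0.23) did not pass edgeR's test (adjusted p = 0.849, range 0.236 to 0.981). It was 0.02 without LOH line 6.

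Transcript tables gave a second reading of the same hosts. Of the 87 annotated transcripts of the 10 RNAs, 86 had a type in GENCODE, and 4 RNAs (Gas5, Snhg1, Snhg5 and Snhg8) had transcripts annotated as retaining an intron. In Snhg1 such transcripts (14 of 18) took 49.5, 42.6 and 46.5% of the gene's TPM in heterozygous lines 6, 23 and 34, and 30.6, 31.2 and 32.7% in the LOH lines. The groups did not overlap, with 46.2 ± 3.47% against 31.5 ± 1.09% (SD, n = 3). Of 3601 tested genes with retained-intron transcripts and a mean of at least 10 TPM, 5.97% had an LOH share below the heterozygous one in this way, and their median change was 0.0430 percentage points. The retained-intron TPM of Snhg1 averaged 59.5 ± 11.1 in heterozygous and 21.9 ± 6.13 in LOH libraries, and its other transcripts 68.6 ± 3.41 and 48.1 ± 14.8 TPM (SD, n = 3). The spliced form ENSMUST00000206155.1, of 605 bases, took 47.5, 52.9 and 50.2% of the TPM in heterozygous and 64.9, 65.6 and 62.0% in LOH lines.

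Gas5 differed by line in the same measure. Retained-intron transcripts (20 of 25) took 61.4, 54.2 and 59.4% of its TPM in heterozygous lines 6, 23 and 34, and 54.6, 26.8 and 26.6% in LOH lines. LOH lines 23 and 34 were far below the heterozygous range, and LOH line 6 was within it. In LOH line 23, where the total level of Gas5 was in the heterozygous range, its retained-intron transcripts summed to 61.1 TPM and its other transcripts to 167 TPM, against 95.8 and 80.9 TPM in heterozygous line 23. Snhg8 showed 25.2, 21.5 and 26.3% in heterozygous and 21.6, 10.3 and 10.9% in LOH lines, again with LOH line 6 at the lower edge of the heterozygous range. In Snhg5, which fell as a gene, the shares overlapped (51.2, 46.2 and 53.9% against 54.1, 41.0 and 39.0%), and its retained-intron transcripts averaged 38.2 TPM in heterozygous and 11.0 TPM in LOH libraries beside 37.2 and 12.4 TPM for its other transcripts. These shares are a description added after the data were seen, no test was run on them, and RSEM divides reads that several transcripts share.

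**Figure D2:**
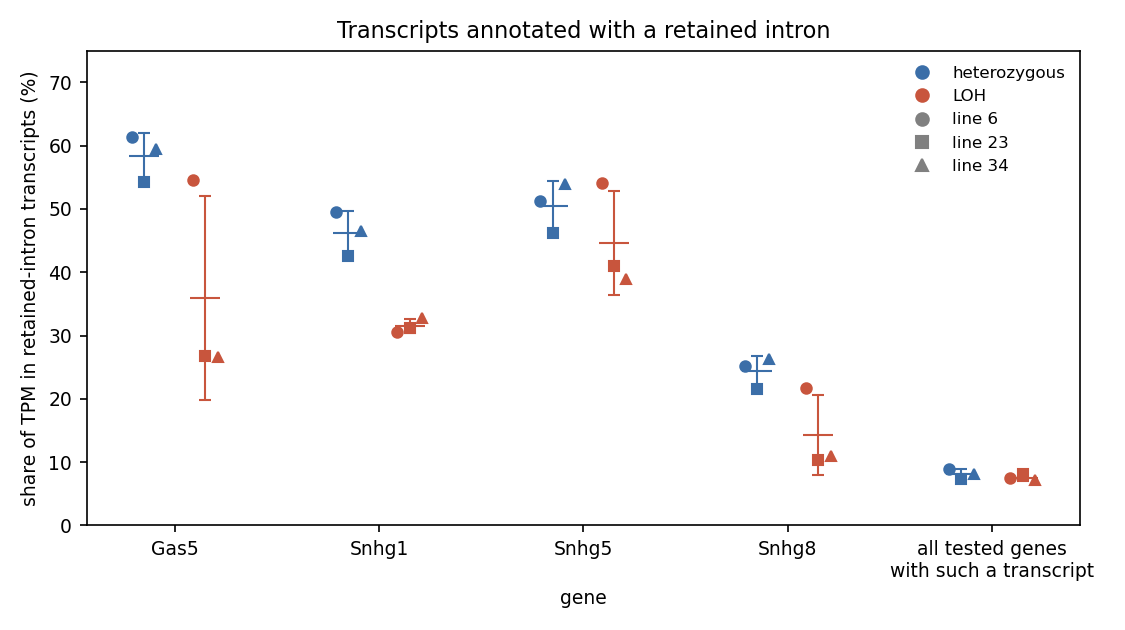
Share of each gene's TPM in transcripts annotated with a retained intron, in percent, for 4 hosts and for all tested genes with such a transcript, 1 point per library. The Snhg1 points of the genotypes are apart (42.6 to 49.5% against 30.6 to 32.7%), LOH lines 23 and 34 sit near 27% in Gas5, and all genes together range from 7.11 to 8.92%.

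The snoRNA genes inside the hosts were counted separately. Of 29 snoRNA genes that overlap the 7 hosts, 21 were at 0 in every library, and 5 had at least 10 counts in any library. Short RNAs are poorly held by a total RNA kit of this kind, so these counts do not measure all snoRNA. Snord22, inside Snhg1, was measured at 18.5, 16.8 and 11.8 CPM in heterozygous and 27.0, 21.9 and 15.1 CPM in LOH lines 6, 23 and 34. In CPM, LOH was thus above its partner in every line while its host was below in every line. In TPM, Snord22 had 2254, 2748 and 1643 in heterozygous and 3455, 2809 and 1561 in LOH lines, so line 34 was lower in LOH. The log2 fold change of Snord22 was 0.45 (SE 0.29) and did not pass edgeR's test (adjusted p = 0.37). Snora73a and Snora73b, inside Snhg3, had log2 fold changes of -0.2 (SE 0.37) and -0.07 (SE 0.23), with both signs over the lines. For Snora44 and Snora61, inside Snhg12, counts were at most 45 and 23 in any library, and the log2 fold changes were 0.49 (SE 0.61) and -0.67 (SE 0.45). None of the 5 passed edgeR's test, and the difference between a host and its snoRNA was not tested.

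**Figure D3:**
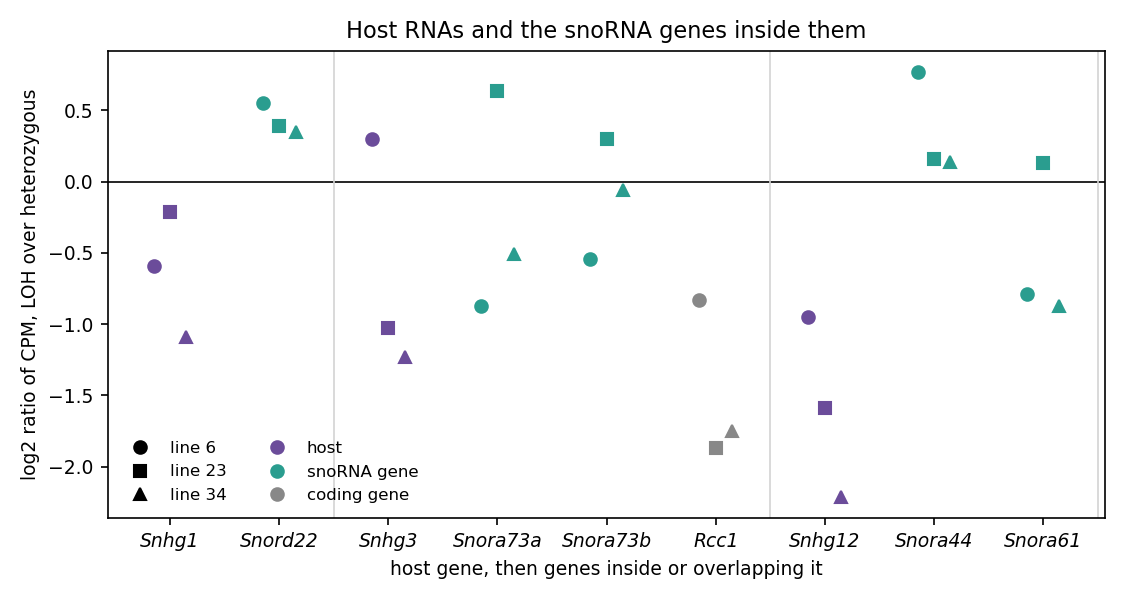
Log2 ratio of CPM, LOH over heterozygous, for each of the 3 lines (marker shapes), for Snhg1, Snhg3 and Snhg12, the snoRNA genes counted inside them and the coding gene Rcc1 that overlaps Snhg3. The 3 Snord22 points lie above 0 (0.35 to 0.55) and the 3 Snhg1 points below (-1.09 to -0.21).

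Some reads of the hosts may belong to genes that overlap them. Rcc1, the exchange factor for Ran, overlaps Snhg3 on the same strand, so reads of their shared bases are divided by estimation. Rcc1 was measured at 77.5, 80.3 and 92.4 CPM in heterozygous and 43.7, 21.9 and 27.4 CPM in LOH lines 6, 23 and 34, without overlap. It fell by 1.43 on the log2 scale (SE 0.28), with an edgeR adjusted p of 0.0385 that became 0.089 with the line as a block. In line 6, where Snhg3 was higher in LOH with a log2 ratio of 0.3, Rcc1 had a log2 ratio of -0.83. Gm17300, on the opposite strand of Snhg3, fell as well, from a mean of 14.2 to 5.79 CPM (log2 fold change -1.3, SE 0.23, edgeR adjusted p = 0.0302, and 0.0884 with the block). Zbtb37, opposite Gas5, gave 15.6, 3.12 and 4.87 CPM in heterozygous and 4.25, 37.4 and 20.7 CPM in LOH lines, and Mcmdc2, opposite Snhg6, had a log2 fold change of -0.78. Neither passed edgeR's test (adjusted p = 0.343 and 0.308). The kit marks strand, but the strand setting of the counting is not given in the sources used here.

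Neat1 (ENSMUSG00000092274.2, chr19:5824708-5845478, minus strand) had the largest log2 fold change of the 10 RNAs. It was measured at 125.6, 127.5 and 76.3 CPM in heterozygous lines 6, 23 and 34, and at 264.2, 632.2 and 562.4 CPM in the LOH lines. Every LOH library was above every heterozygous one, and LOH line 6 was the lowest LOH library. The means were 109.8 ± 29.0 and 486.3 ± 195 CPM (SD, n = 3), 4.43-fold higher in LOH. The edgeR log2 fold change was 2.15 (SE 0.38, adjusted p = 0.0308), and with the line as a block 2.09 (SE 0.41, adjusted p = 0.0824). Without heterozygous line 6, 23 or 34 the adjusted p was 0.131, 0.125 and 0.146, and without LOH line 23 or 34 it was 0.0632 and 0.052. It passed in 8 of 14 alternatives, and 0.146 was the highest adjusted p. The share of counts on protein-coding genes was lowest in LOH lines 23 and 34 (61.5 and 61.4%), where Neat1 was highest. In heterozygous lines 6, 23 and 34 it was 73.3, 67.9 and 71.1% and did not follow the order of Neat1. With only the protein-coding genes and the 10 RNAs in the fit, the log2 fold change of Neat1 was 2.15 (edgeR adjusted p = 0.0285). That of Malat1 was 1.66 (edgeR adjusted p = 0.128). The part of the protein-coding share in the level of Neat1 was not tested.

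The long form of Neat1 and the short form ENSMUST00000174287.1, of 3004 bases, were seen in every library. A further annotated transcript of Neat1, ENSMUST00000174829.1 of 1030 bases, was at 0 TPM in heterozygous line 6 and above 0 in the other libraries. The long form ENSMUST00000173672.1, of 20771 bases, took 22.6, 29.6 and 23.2% of the TPM of Neat1 in heterozygous and 22.1, 40.3 and 22.6% in LOH lines 6, 23 and 34. The shares overlapped, and LOH line 23 alone stood above the rest. The mean was 25.2 ± 3.90% against 28.3 ± 10.4% (SD, n = 3), a difference of 3.17 percentage points (exact two-sided permutation p = 0.9, where 0.1 is the smallest possible). Without LOH line 23 the difference was -2.83 percentage points. Reads over bases that the long and the short form share are divided by estimation.

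Malat1 (ENSMUSG00000092341.2, chr19:5795690-5802672, minus strand), 22035 bases from Neat1, was the most abundant of the 10 RNAs per unit of length. That rank includes short transcripts, and RSEM divides the reads they share. The transcript of 6983 bases alone had 258, 75.3 and 109 TPM in heterozygous and 134, 496 and 370 TPM in LOH lines 6, 23 and 34. Gas5 as a whole had 237, 177 and 199 TPM in heterozygous and 131, 228 and 118 TPM in LOH lines. Malat1 gave 1483, 538 and 724 CPM in heterozygous and 1034, 4242 and 3369.8 CPM in LOH lines 6, 23 and 34. LOH was higher in lines 23 and 34, with log2 ratios of 2.98 and 2.22, and lower in line 6, with -0.52. LOH line 6 lay inside the heterozygous range. The edgeR log2 fold change of 1.65 (SE 0.58) did not pass (adjusted p = 0.135, range 0.027 to 0.379 over the alternatives). It passed with DESeq2 (adjusted p = 0.027), which called 14.8% of all genes, and in edgeR without LOH line 6 (2.01, adjusted p = 0.0395). Of 14 tested genes within 100000 bases of Malat1 and Neat1, 2 were called, Kcnk7 and Ehbp1l1, both higher in LOH, where 5.21% of all genes were called. Kcnk7 had 2, 1 and 1 counts in heterozygous lines 6, 23 and 34, under the floor of 3 counts, and 11, 24 and 12 in LOH lines. It passed the filter on low counts only through its LOH libraries, so the direction of its call is no independent result. With the line as a block neither Kcnk7 nor Ehbp1l1 passed (edgeR adjusted p = 0.0804 and 0.0908). They were named after their values were seen.

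Pvt1 (ENSMUSG00000097039.8, chr15:62037986-62378096, plus strand) had the lowest counts, at 77 to 193 a library. It was measured at 6.44, 6.90 and 5.67 CPM in heterozygous and 4.48, 3.70 and 3.63 CPM in LOH lines 6, 23 and 34. The groups did not overlap, with 6.34 ± 0.62 against 3.94 ± 0.47 CPM (SD, n = 3), and the line ratios were alike at -0.51, -0.88 and -0.63 (log2). The log2 fold change of -0.69 (SE 0.26) did not pass edgeR's test (adjusted p = 0.161, range 0.0542 to 0.398). Myc, the transcription factor gene 47611 bases away, averaged 75.3 CPM in the heterozygous group and 71.5 CPM in the LOH group, with a log2 fold change of -0.07 (edgeR adjusted p = 0.873). Its line ratios were 0.25, -0.7 and 0.1 (log2).

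Read by organoid line, 5 of the 10 RNAs (Snhg1, Snhg5, Snhg8, Snhg12 and Pvt1) were lower in LOH in every line, as were 21.6% of all genes tested, and Neat1 was higher in every line, as were 22.9%. Gas5, Snhg3, Snhg6 and Malat1 had both signs. For the 7 hosts together, lines 6, 23 and 34 had median log2 ratios of -0.59, -0.21 and -1.23. Line 34 gave the lowest ratio of the 3 lines for Snhg12, Snhg8, Snhg1, Gas5, Snhg3, Snhg5 and Snhg6, and the highest for Neat1 (2.88). Line 23 was the only one with Gas5 and Snhg6 higher in LOH (0.19 and 0.13), and line 6 the only one with Snhg3 higher (0.3) and Malat1 lower. Each line has 1 library per genotype, so differences between lines were not tested.

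**Figure D4:**
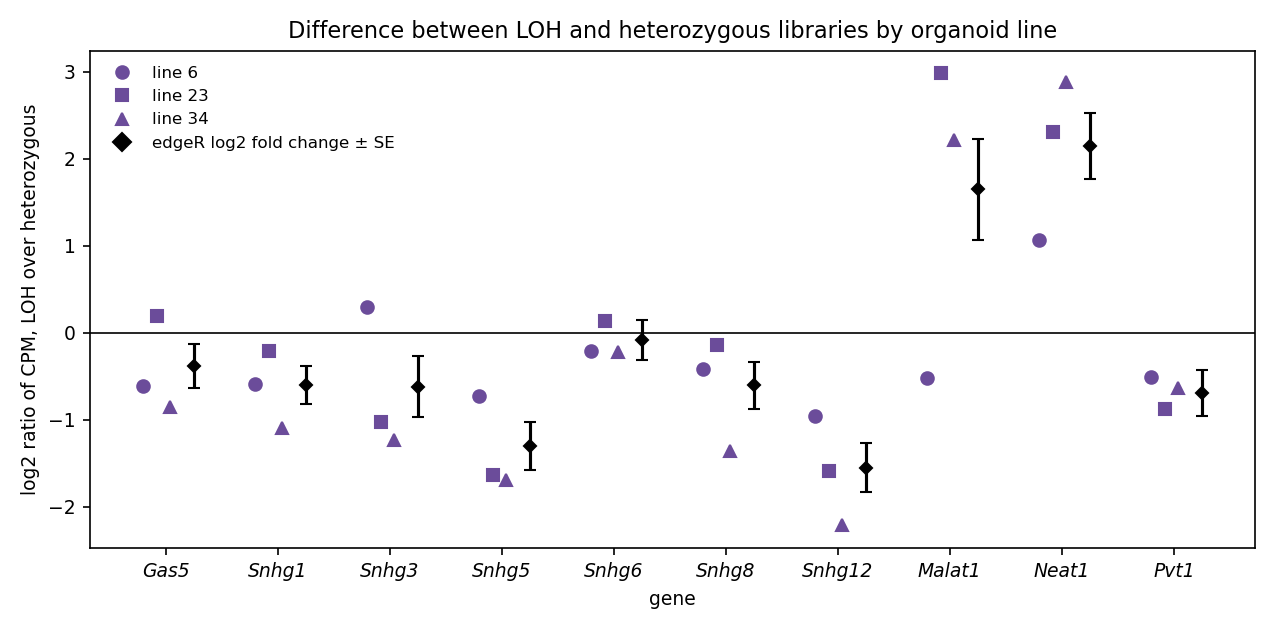
Log2 ratio of CPM, LOH over heterozygous, for each of the 10 RNAs in lines 6, 23 and 34, 1 point per line. Snhg12 runs from -2.21 to -0.95 and Neat1 from 1.07 to 2.88, while Malat1 has line 6 at -0.52 and line 23 at 2.98.

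Some of the chromosomes that carry these genes also differed from the rest of the genome in their median ratio, and their part in the results was not tested. On chromosome 4, which holds Snhg12 and Snhg3, the median log2 ratio of 626 genes was -0.35, -0.48 and -0.27 in lines 6, 23 and 34. On chromosome 19, which holds Malat1, Neat1 and Snhg1, it was 0.33, 0.44 and 0.04 over 362 genes. Chromosome 9, with Snhg5, gave -0.01, -0.4 and 0.05, and chromosome 1, with Gas5 and Snhg6, -0.1, 0.22 and 0.15. Over all 10076 genes so compared, the line medians lay between -0.08 and 0.01. Snhg12 lay below the median of its chromosome and Neat1 above that of its own in every line. Of 13 tested genes within 100000 bases of Snhg12 and Snhg3, Rcc1 and Gm17300 were called, both lower. Over all genes 5.21% were called, 1.66% of them lower in LOH. Both Rcc1 and Gm17300 overlap Snhg3 itself. The 13 also include Snora44, Snora61, Snora73a and Snora73b, which lie inside Snhg12 or Snhg3. With the line as a block neither Rcc1 nor Gm17300 was called.

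Levels can be set against each other in TPM, which corrects for length. In heterozygous libraries Malat1 was highest on average (329 ± 231 TPM), then Gas5 (204 ± 30.3 TPM) and Snhg1 (128 ± 14.5 TPM), followed by Snhg6 (87.9), Snhg5 (75.5), Snhg8 (66.6), Snhg12 (59.8), Snhg3 (36.7), Neat1 (17.3) and Pvt1 (5.44 TPM). Ranges overlapped between the neighbours Malat1 and Gas5, Snhg5 and Snhg8, and Snhg8 and Snhg12. In LOH libraries the order was Malat1 (682 ± 416 TPM), Gas5 (159 ± 60.1 TPM), Snhg1 (70.0), Snhg6 (68.6), Neat1 (52.4), Snhg8 (37.6), Snhg5 (23.5), Snhg3 (19.7), Snhg12 (17.4) and Pvt1 (2.47 TPM). From Snhg1 down to Snhg12 each range overlapped the next. Neat1 went from the ninth to the fifth place: its TPM was below that of Snhg5 in all 3 heterozygous libraries (12.0 to 23.6 against 68.8 to 79.3) and above it in all 3 LOH libraries (37.1 to 65.4 against 17.5 to 35.2).

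The scale matters for the split of calls over all genes. The count test called 516 genes higher and 241 lower in LOH. limma on log2(TPM + 1) called 280 higher and 1631 lower, and its median over all genes was -0.35. Relative to that median Neat1 was at 1.91, Malat1 at 1.39, Snhg5 at -1.36, Snhg12 at -1.43, Snhg1 at -0.55 and Gas5 at -0.06 on the log2(TPM + 1) scale. All 10 RNAs kept the sign of their log2 fold change in the TPM fits, but relative to the median Snhg6 went from -0.03 with a pseudocount of 1 to 0.03 with 0.1.

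Related genes were described from lists of known function, which were chosen with earlier results of these data known. Their calls are to be read against the 3.55% of all genes called higher and the 1.66% called lower. A list with 1 call among 18 to 33 genes is near that background. In the list of other noncoding snoRNA or small RNA hosts, 17 genes were tested. Among them the entry for Snhg7 is annotated as a snoRNA gene and that for Snhg11 as protein-coding. Of the 17, 4 fell and none rose, with a median log2 fold change of -0.72 and 12 below 0. They were Rian, which carries snoRNAs of the imprinted Dlk1-Dio3 region (14.8 ± 5.46 to 1.77 ± 0.523 CPM, log2 fold change -3.05, edgeR adjusted p = 0.0164, 0.0431 with the block), Meg3 of the same region (6.08 to 0.793 CPM, -2.93, adjusted p = 0.0267, 0.0688 with the block), Mir17hg, which hosts the miR-17 cluster (15.03 to 4.51 CPM, -1.74, 0.0185, 0.068 with the block), and Snhg15 (20.3 ± 0.343 to 5.55 ± 2.22 CPM, -1.87, 0.029, 0.0696 with the block). Of 33 coding hosts, mostly ribosomal protein and translation factor genes, 1 fell: Ptges3, a cochaperone gene, went from 272.7 to 149.1 CPM (log2 fold change -0.87, SE 0.17, edgeR adjusted p = 0.0378, 0.119 with the block). The median of the coding hosts was -0.26, nearer to the median of all genes (0.06) than that of the noncoding hosts.

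Of 18 genes for proteins that build snoRNA particles, all 18 had a log2 fold change below 0, with a median of -0.73, where 6687 of all 14537 genes were below 0. The line medians were -0.15, -1.08 and -0.96 in lines 6, 23 and 34, and in line 6 some of them were higher in LOH, among them Nop10 (log2 ratio 0.48), Nufip1 (0.42) and Snu13 (0.32). Of these, 1 passed, Nop58, a core protein of box C/D particles (117.7 to 67.7 CPM, log2 fold change -0.8, SE 0.18, edgeR adjusted p = 0.0499, 0.138 with the block). Of 20 nonsense-mediated decay factors none passed edgeR's test, 2 had an unadjusted p under 0.05, and the median was -0.11. DESeq2 called 1 of them, where it called 14.8% of all genes. With either pseudocount, limma on TPM called 2, where it called 1911 and 1753 of 11918 genes. The smallest adjusted p values of edgeR were those of Magoh (log2 fold change -0.72, adjusted p = 0.0832) and Smg9 (-0.53, adjusted p = 0.11). Of 23 paraspeckle proteins, 1 fell, the RNA-binding protein gene Rbmx (51.0 to 16.9 CPM, log2 fold change -1.6, SE 0.2, edgeR adjusted p = 0.0164, 0.0496 with the block), while the RNA scaffold Neat1 rose. Their median was -0.42. Of 21 nuclear speckle and splicing proteins, the splicing factor gene Srsf3 fell (293.3 to 171.6 CPM, log2 fold change -0.77, SE 0.16, edgeR adjusted p = 0.0449). With the block its adjusted p was 0.146. The median of that list was -0.28. The counts of these lists moved with the library left out.

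**Figure D5:**
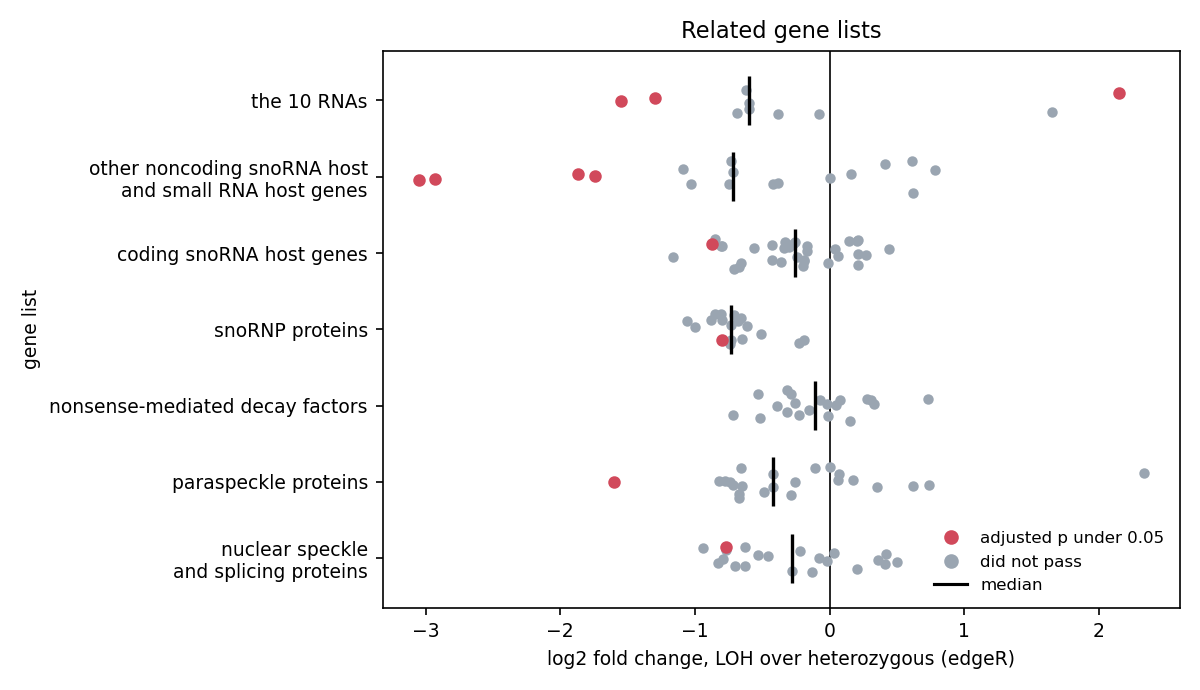
Log2 fold change, LOH over heterozygous, of every tested gene in 7 lists, 1 point per gene, with red points for an adjusted p below 0.05 in edgeR and a bar at each median. The 18 points of the snoRNA particle proteins all lie below 0, and the other noncoding hosts reach down to -3.05.

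Genes with the most similar pattern were ranked by Pearson's r of log2 CPM over the 6 libraries, among 8583 genes averaging 10 CPM or more, as a description without a test. For Gas5 they included Snrnp48 (0.987) and Tnfrsf19 (0.976). For Malat1 they were Rictor (0.996), Srp54b (0.995) and Magi3 (0.995), and for Pvt1 Xxylt1 (0.997), Traf3ip1 (0.993) and Tbcel (0.991). Among the 10 RNAs themselves, r was 0.98 for Snhg1 with Snhg8, 0.96 for Snhg5 with Snhg12, 0.93 for Gas5 with Snhg1, 0.87 for Malat1 with Neat1 and -0.99 for Snhg5 with Neat1. All of these share the same 6 libraries, genotypes and scaling.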

How the data were processed

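Libraries were prepared from total RNA with a kit that keeps strand, per the labels. The authors deposited estimated (expected) counts and TPM per gene and transcript, in the format of RSEM per the file headers. TPM values were scaled by the authors for length and depth. The deposited normalized tables hold a signal, the expected counts divided by size factors, and were used to match symbols. The submitters' processing notes name STAR 2.5.2b, RSEM 1.3.0, DESeq2 1.44.0, FastQC 0.11.5 and GRCm38.p5. Names of the deposited tables give GENCODE mouse release 16 as the annotation, and coordinates here came from release 21 (GRCm38). The strand setting of the counting and read filters are not given in the sources used here.

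Expected counts were rounded, filtered with filterByExpr, scaled by TMM and tested with the two-sided quasi-likelihood test of edgeR 4.0.16 (R 4.3.3), Benjamini-Hochberg adjusted over 14537 genes. Alternatives were RLE scaling, other filters, the protein-coding genes alone, DESeq2 1.42.0, limma 3.58.1 on log2(TPM + 1) and log2(TPM + 0.1), the line as a block, and leaving out each library. The fit was tested on simulated data. A floor of 3 counts corresponds to 0.1 to 0.223 CPM and covers counting error only. The same number in a title marks the same line, so the numbers pair the samples. No label states a paired model, so the main test left the line out and the block was an alternative. Deviations from the group means of same-numbered libraries correlated at -0.3, 0.01 and 0.29 for lines 6, 23 and 34. Those of different lines correlated at -0.39 to 0.3, and the same-line values lie inside that range.

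The members and lists were chosen with earlier results of these data known. Named list genes are those with an adjusted p below 0.05, at most 4 in each direction, or else the 2 with the smallest p. Also named are the 3 genes most alike Gas5, Malat1 and Pvt1 (1 of those for Gas5 is not reported here), genes that overlap a member, Myc, and snoRNA genes with at least 10 counts in a library. Retained-intron shares and the promoter search were added after seeing the data.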

Additional observations from a re-analysis of the deposited data

Results flagged for a closer look

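Among 35 results followed line by line, 11 pointed both ways, with LOH above its heterozygous partner in at least 1 line and below it in another. With 1 library per genotype in each line, the difference between lines was not tested. The gap between the highest and the lowest log2 ratio was 3.5 for Malat1, 1.53 for Snhg3, 1.04 for Gas5 and 0.35 for Snhg6. Among genes that overlap or neighbour them it was 5.4 for Zbtb37, opposite Gas5, and 0.95 for Myc, beside Pvt1. For the snoRNAs it was 1.51 for Snora73a, 0.84 for Snora73b and 1.0 for Snora61. The change in the share of the long Neat1 transcript differed by 11.4 percentage points between lines, with line 23 highest. The change in the retained-intron share of Snhg5 differed by 17.8 percentage points, with line 6 the only one higher in LOH.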

How the results depend on the processing

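Of 140 values of single RNAs under an alternative, 120 kept their direction and their side of the threshold. Most of these 120 belong to RNAs that had not passed in the main fit. Of the rest, 17 that had passed no longer did, 2 newly passed and 1 changed sign. The 17 belong to Snhg5, Snhg12 and Neat1, which passed in 8, 9 and 8 of 14 alternatives. The change of sign was that of Snhg6, at -0.28 to 0.02 when a library was left out, above 0 without LOH line 6. Over all genes the count of calls went from 757 to 213 with the replicate block, 2283 with DESeq2, 1911 and 1753 with limma on TPM (pseudocounts 1 and 0.1), and 0 to 2448 when a library was left out. It was 0 without heterozygous line 6, 23 or 34, where 2964, 2636 and 2269 genes had an unadjusted p under 0.05, 2448 without LOH line 6 and 451 without LOH line 23. Of the 10 RNAs, 3 were called, 0 with the block and 0 to 4 when a library was left out (0 without any heterozygous library or LOH line 23, 1 without LOH line 34, 4 without LOH line 6). List sizes below are those tested in the main fit. Of all genes, the block called 1.47%, DESeq2 14.8%, and limma 1911 and 1753 of 11918. Of the limma calls, 1631 and 1486 were lower in LOH. In the order block, DESeq2, limma with pseudocount 1 and with 0.1, the calls were 0, 4, 12 and 11 for 33 coding hosts. They were 0, 3, 12 and 11 for 18 snoRNA particle proteins, and 0, 6, 11 and 11 for 21 speckle proteins. DESeq2 and both limma fits gave 1, 2 and 2 for 20 decay factors and 8, 9 and 9 for 23 paraspeckle proteins. The other noncoding hosts had 1 with the block. With no filter, particle and speckle proteins had 0 calls, and with at least 10 counts in every library particle proteins had 0. Leaving out a library gave 0 to 6 for other noncoding hosts, 0 to 6 for coding hosts and 0 to 13 for particle proteins. It gave 0 to 2 for decay factors, 0 to 7 for paraspeckle and 0 to 6 for speckle proteins. Each was highest without LOH line 6, where 16.2% of all genes were called. The difference in the long Neat1 share ran from -2.83 to 6.31 percentage points, below 0 without LOH line 23. The cause of these changes was not tested. The fit on protein-coding genes was not run for the other noncoding hosts, which it leaves out. Pvt1, with 77 to 193 counts a library, had the fewest counts of the 10, and Malat1 the largest standard error (0.58).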
